A study of Mus musculus with 12 samples.

Results

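Glycolysis and hypoxia-response genes were followed in differentiating mouse 3T3-L1 cells with and without knockdown of the arginine methyltransferase PRMT1. The members were the rows of the deposited tables whose gene name equalled 1 of 32 symbols, so 32 of 39423 listed genes were taken, 21 of them for glucose uptake, glycolysis and lactate handling and 11 for the response to low oxygen. 3T3-L1 is a clonal line of mouse preadipocytes that turns into adipocytes when confluent cells receive a hormone mixture. All 4 groups carried a transfected siRNA and received that mixture, named MDI on the labels (DMI in the study) and made of dexamethasone, 3-isobutyl-1-methylxanthine and insulin. The groups were cells labelled NC with the non-targeting control siRNA (siCtrl) and cells with siRNA against PRMT1 (siPRMT1), each after 24 h (day 1) and 72 h (day 3) of MDI, with 3 libraries in each group and 12 in all. The labels name no change of oxygen or glucose in any group, the sources do not say which PRMT1 siRNA was sequenced, and the labels do not say whether replicates were separate cultures. The study's methods speak of independent experiments for its data in general, without naming the sequenced libraries, so p-values measure the spread between these libraries, part of which may be technical.

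Glycolysis splits glucose into pyruvate through a chain of enzymes that starts with uptake by glucose transporters and trapping by hexokinase, and lactate dehydrogenase can turn the pyruvate into lactate. Many genes of this chain are also transcribed under hypoxia-inducible factors, which pair an alpha subunit (Hif1a or Epas1) with Arnt and bind short hypoxia response elements. Prolyl hydroxylases of the Egln family mark the alpha subunits for destruction when oxygen is present, and some of their own genes are induced by the factors they restrain. In fat cells glycolysis also supplies glycerol phosphate and acetyl units for triglyceride, and insulin is a known inducer of several of its genes.

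The 12 libraries held 15116462 to 42357137 counts on genes, and the 32 members took 1.05% to 1.40% of them. A count of 0 would allow up to 3 counts, which is 0.0708 CPM (counts scaled to a common library total) in the deepest library and 0.198 CPM in the shallowest, for counting error only. Prmt1, the targeted gene, had a mean of 85.8 FPKM ± 4.71 (SD, n = 3) in siCtrl cells at day 1 and 41.3 ± 2.61 in siPRMT1 cells, and the same 2 kinds of cells had 124 ± 15.1 and 67.4 ± 4.92 at day 3. FPKM, the authors' unit, is the count of a gene scaled by its length and by the library total. The source label reads preadipocytes for every library, while the summed FPKM of 8 adipocyte markers was 148 to 154 in siCtrl cells at day 1 and 2802 to 3019 at day 3. In siPRMT1 cells it was 112 to 126 and 2175 to 2384. With the knockdown, 4 of 7 tested adipocyte markers were called lower at day 1 (1.61% of all genes tested were) and 3 of 8 at day 3 (3.80% of all genes), where Fabp4 had -0.13 on the log2 scale and did not pass. Preadipocyte markers summed to 1354 to 1404 FPKM in siCtrl and 1279 to 1308 in siPRMT1 cells at day 1, and to 485 to 518 and 596 to 676 at day 3, where 2 of 8 were called higher with the knockdown, as were 2.84% of all genes. In bulk RNA, fewer cells of a type and less RNA per cell cannot be told apart. The part of these markers in the results below was not tested. Markers of macrophages summed to 3.64 to 5.81 FPKM over all libraries with Ptprc at 0, and epithelial markers rose from at most 0.12 FPKM at day 1 to 11 to 11.4 in siCtrl and 6.36 to 6.64 in siPRMT1 cells at day 3 through Krt8 and Krt18, with Epcam and Cdh1 at 0.02 or less in every library. Endothelial markers summed to at most 0.88 FPKM and muscle markers to at most 6.8, with Myh4 and Myod1 at 0. The replicate 3 library of siCtrl cells at day 1 stood apart from the other 2 of its group, with a chi-square per gene of 50.6 and 30.8 against 5.30 between those 2.

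Levels among members spanned from abundant enzymes of late glycolysis to nearly silent isoforms. In siCtrl cells at day 3, Gapdh (glyceraldehyde-3-phosphate dehydrogenase) led with a mean of 962 FPKM ± 99.2 (SD, n = 3). Pkm (pyruvate kinase) at 718 ± 49.3, Ldha (lactate dehydrogenase A) at 655 ± 60.3 and Tpi1 (triosephosphate isomerase) at 623 ± 37.1 came next, and neighbours in that order from Pkm to Tpi1 overlapped between libraries. Pgk1 (phosphoglycerate kinase) at 569 ± 40.3, Aldoa (aldolase A) at 513 ± 33.9 and Pgam1 (phosphoglycerate mutase) at 388 ± 10.2 FPKM followed. Among hypoxia-response members the order in these cells was led by Bnip3 at 131 ± 4.79 FPKM, a mitochondrial protein that promotes mitophagy, and ended with Ndrg1 at 2.80 ± 0.691. The lowest levels were those of Slc16a3, a lactate exporter, at 0.837 ± 0.0666, and Aldoc, the brain-type aldolase, at 0.127 ± 0.0493 FPKM, where Aldoc had 4, 7 and 10 counts.

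The Eno1 row does not hold the level of enolase 1. It carried 1106 counts over all libraries, while Eno1_1, a second row of the gene on an alternate sequence, carried 95669 and the intronless copy Eno1b, 99.5% identical over 1736 bases, carried 57214. With the 3 rows summed, an alternative chosen after seeing the data, Eno1 was called in no comparison. Hk2 had 25933 counts and its second row Hk2_1 another 6578, and the calls of Hk2 were the same with both summed. Counts of Gapdh could be shared with near copies, of which 4 are listed with 3.10% of its counts. How reads that map to several places or to overlapping genes were counted, and whether strand was used, is not given in the sources used here. Slc16a3 (686 counts) shares 223 exon bases with Csnk1d (80415 counts) on the other strand and Ankrd37 (1961 counts) shares 57 with Ufsp2 (23414 counts), so both members are uncertain to that extent. The knockdown difference at day 3 was 0.02 for Csnk1d (log2, adjusted p = 0.841, edgeR) and -0.26 for Ufsp2 (adjusted p = 0.0352).

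Promoter windows of the RefSeq table (GRCm38.p6, 250 bases before to 50 after each start site) were found for 30 members, and none was listed for Ndrg1 and Epas1. The core of the hypoxia response element was searched as ACGTG and GCGTG on both strands. ACGTG was in a window of 21 of 30 members (70.0%) and of 21.8% of all 27025 genes with a window, and either core in 27 of 30 (90.0%) against 46.7%. A gene can have several windows, and by window ACGTG was in 24 of 46 (52.2%) against 19.6% of all 32851. The background holds genes whether expressed in these cells or not. The 2 cores can overlap in their end bases, and ACGTG is part of the E-box CACGTG, a palindrome that counts on both strands, which was in a window of 5 members (16.7%) and 8.09% of all genes. Matches are letters in a window, not sites shown to be bound. The windows below show 1 ACGTG core each, in capitals and read along the gene's strand, for 6 members that were lower in siPRMT1 cells at day 3 and 2 that did not pass the fold threshold. Where the capitals read CACGT, the core stands on the opposite strand. The cores shown for Bnip3 and Ldha each lie in an E-box CACGTG and so stand on both strands. GCGTG cores, as in the Bnip3 stretch, are left in lower case.
Slc2a1, chr4:119108697-119108725, plus strand, position -36 from the start: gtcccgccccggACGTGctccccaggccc
Hk2, chr6:82774490-82774518, minus strand, position -52 from the start: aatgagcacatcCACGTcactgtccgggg
Pfkfb3, chr2:11553973-11554001, minus strand, position -60 from the start: ctccgcgccgtgACGTGccaagctgtgac
Bnip3, chr7:138909597-138909625, minus strand, position -107 from the start: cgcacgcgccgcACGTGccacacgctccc
Ankrd37, chr8:45999840-45999868, minus strand, position -6 from the start: cagtgtttgggtACGTGaggccgcagcgg
Egln3, chr12:54204087-54204115, minus strand, position -229 from the start: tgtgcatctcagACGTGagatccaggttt
Ldha, chr7:46845745-46845773, plus strand, position -47 from the start: ggcccagcctacACGTGggttcccgcacg
Egln1, chr8:124949306-124949334, minus strand, position -68 from the start: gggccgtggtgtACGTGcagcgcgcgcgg
Among members with a window, ACGTG was in 7 of the 10 that were called lower at day 3 and in 14 of the other 20, the same share of 70.0%, while GCGTG was in 5 of the 10 (50%) and 15 of the other 20 (75%), and either core in 8 (80%) and 19 (95%). Gpi1, Eno2 and Tpi1 had neither core in their windows.

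To see how the genes behave as control cells differentiate, siCtrl cells at day 3 were compared with siCtrl cells at day 1. The steepest rises were those of Ankrd37, Hk2, Pfkfb3, Egln3 and Bnip3. Of 31 members tested, 11 rose and 2 fell when called at an adjusted p below 0.05 with a log2 fold change beyond 0.5 either way (edgeR's quasi-likelihood test, Benjamini-Hochberg over all 13829 genes tested). The background was 22.7% of all genes called higher and 20.4% called lower. In this fit the share of members that rose was above the background and the share that fell was below it. That difference was not tested. At any fold, 17 members passed the adjusted p as higher and 6 as lower, beside 30.2% and 28.7% of all genes. On CPM after TMM normalization the groups did not overlap for 25 of 31 members, as for 64.4% of all genes. The median log2 fold change was 0.31 over members and -0.0042 over all genes tested. With offsets for GC content and gene length, chosen after seeing the data, these medians were 0.081 and -0.070. Fewer members were then called higher and more lower, as given below. No share of all genes was taken with those offsets, so it is not shown whether the members still stood above the background.

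Hk2, the insulin-responsive hexokinase, had 6.82, 6.39 and 6.96 FPKM in siCtrl cells at day 1 and 29.8, 29.7 and 33.7 at day 3. The day 3 libraries all lay far above the day 1 libraries, a 4.40-fold rise (log2 2.14, SE 0.0922, adjusted p = 5.95e-08). Pfkfb3 makes fructose 2,6-bisphosphate, the strongest activator of phosphofructokinase, and went from 1.82, 1.66 and 1.76 FPKM to 7.95, 7.43 and 8.21. Its groups did not overlap either, and the rise was 4.28-fold (log2 2.099, SE 0.0998, adjusted p = 1.17e-07). Aldoa, which splits the 6-carbon sugar, rose 2.26-fold from 206, 207 and 236 FPKM to 479, 547 and 514 (log2 1.18, SE 0.0850, adjusted p = 1.76e-06). Smaller rises were called for Slc2a1 (the glucose transporter GLUT1, log2 0.80), Pfkl (liver-type phosphofructokinase, 0.63), Gpi1 (glucose phosphate isomerase, 0.57) and Pfkfb4 (0.52). With offsets for GC content and gene length, chosen after seeing the data, 6 members in place of 11 were called higher in siCtrl cells, and Slc2a1 (0.49), Pfkl (0.39), Gpi1 (0.30), Pfkfb4 (0.37) and Egln1 (0.34) fell under the fold threshold, while Pfkm (-0.52) and Pkm (-0.62) passed it as lower. Pfkfb4 also lost its call when siCtrl replicate 1 or 2 of day 1, or replicate 2 or 3 of day 3, was left out.

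The abundant enzymes of lower glycolysis moved little in comparison. In siCtrl cells the log2 fold change from day 1 to day 3 was 0.15 for Tpi1, 0.13 for Gapdh, -0.04 for Pgk1 and 0.30 for Ldha, and Pkm, the last enzyme of the chain, stood at -0.27. Pgam1 reached 0.45 with an adjusted p of 4.29e-04, under the fold threshold. Hk1 and Pfkm, isoforms of hexokinase and phosphofructokinase, had values of -0.14 and -0.27.

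Among hypoxia-response genes, Ankrd37, an ankyrin-repeat gene known as a strong target of hypoxia-inducible factor, had 1.65, 1.92 and 1.43 FPKM at day 1 and 8.63, 7.20 and 9.80 at day 3 in siCtrl cells. This was the steepest rise of any member, 4.90-fold (log2 2.29, SE 0.162, adjusted p = 1.51e-06). Egln3, the most hypoxia-inducible prolyl hydroxylase, went from 16.5, 15.3 and 19.6 FPKM to 48.9, 50.4 and 55.1 (log2 1.51, adjusted p = 2.0e-06), and Egln1, the main oxygen sensor of the family, rose by 0.61 on the log2 scale. Bnip3 rose 2.72-fold, from 46.9, 43.4 and 46.8 to 135, 126 and 132 FPKM. The alpha subunits differed. Hif1a had 86.4, 83.3 and 61.4 FPKM at day 1 and 42.5, 36.2 and 35.2 at day 3, a fall by 1.09 on the log2 scale (adjusted p = 4.82e-05), and Epas1 (HIF-2 alpha) went from 9.97, 10.3 and 10.2 to 14.9, 14.7 and 15.5 FPKM (log2 0.50, adjusted p = 4.42e-04, just under the fold threshold). P4ha2, a subunit of the collagen prolyl 4-hydroxylase, fell by 0.82, and its partner isoform P4ha1 had -0.44 with an adjusted p of 4.70e-04. Vegfa, the angiogenic growth factor, had -0.36, while Kdm3a, a histone demethylase, and Ndrg1, a stress-responsive gene, had -0.19 each and did not pass the test.

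In siPRMT1 cells between the same days, 7 members rose and 7 fell of 32 tested. The background was 19.0% of 14224 genes called higher and 17.4% called lower, so both shares of members were near it, with no test. The median was -0.10 over members against 0.0022 over all genes. The day 3 libraries lay entirely above those of day 1 for 12 members and entirely below for 15, beside 33.8% of all genes above and 66.6% on either side. Hk2 rose by 1.13 on the log2 scale (from 8.98, 9.70 and 8.95 to 20.8, 19.5 and 20.6 FPKM), Ankrd37 by 1.05, Pfkfb3 by 0.91, Bnip3 by 0.87, Aldoa by 0.84, Epas1 by 0.74 and Egln3 by 0.68. Slc2a1, at 58.9, 52.9 and 57.3 FPKM on day 1 and 47.1, 47.8 and 52.1 on day 3, had a log2 fold change of -0.21 (adjusted p = 0.00957), where siCtrl cells had 0.80. Ndrg1 fell most, from 4.39, 4.07 and 4.34 to 1.38, 1.10 and 1.09 FPKM (log2 -1.86, SE 0.117, adjusted p = 8.48e-09). Hif1a fell by 0.93, P4ha2 by 0.80 and Vegfa by 0.79, and Eno2, the neuronal enolase, reached -0.50, a call at the edge of the fold threshold that was lost without siPRMT1 replicate 1 or 3 of day 1 or replicate 2 of day 3. The Aldoc call (-1.15) rests on a few counts a library and was lost without siPRMT1 replicate 3 at day 1 or replicate 2 at day 3 (adjusted p up to 0.0623 with edgeR). It was also lost with DESeq2 on all libraries (log2 -1.15, adjusted p = 0.102) and with limma on log2(FPKM + 1) without a filter (log2 -0.14). The seventh call, the Eno1 row, was lost with the copies summed (log2 -0.17) and also without siPRMT1 replicate 3 at day 1 (log2 -0.29) or replicate 1 or 2 at day 3. Both courses are set side by side in the plot of day 3 against day 1.

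**Figure D1:**
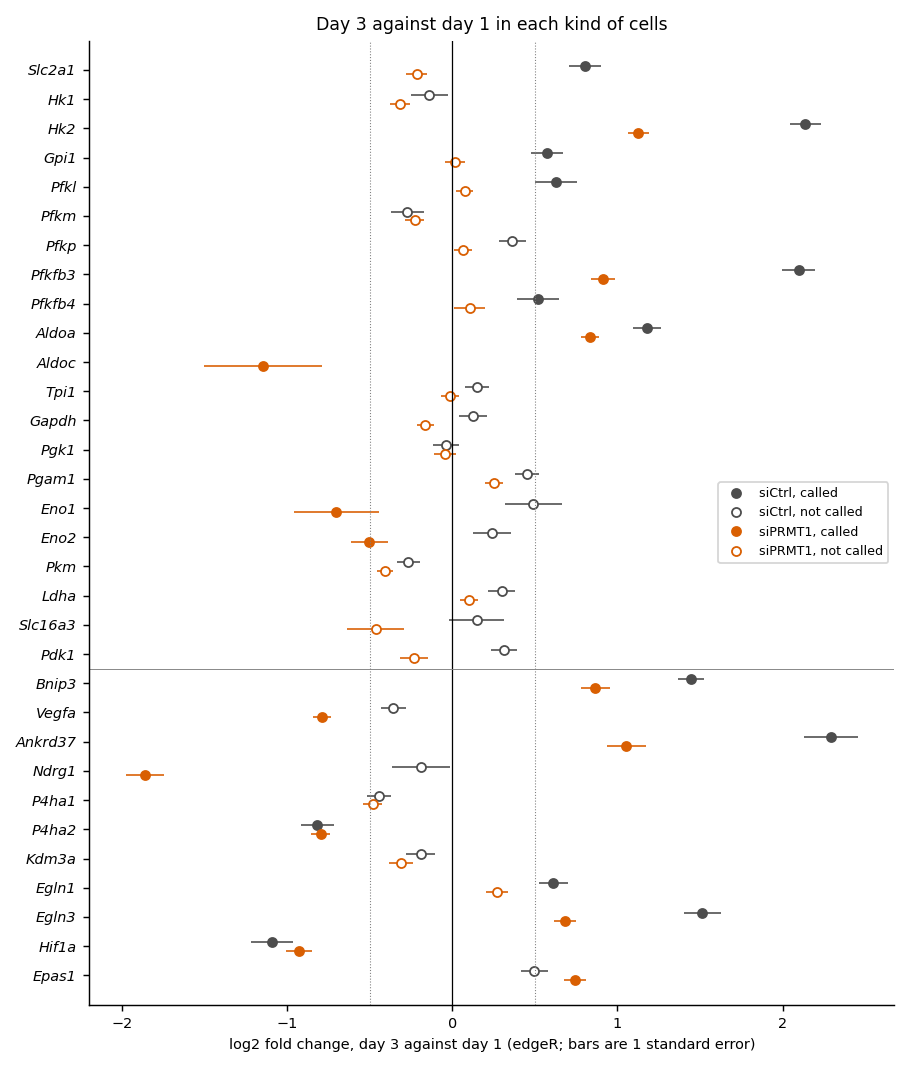
Log2 fold change from day 1 to day 3 for each member (rows, with glycolysis genes above the line and hypoxia-response genes below it) in siCtrl cells (grey) and siPRMT1 cells (orange), with bars of 1 standard error, filled points for called members and dotted lines at the fold threshold of 0.5. Hk2 stands at 2.14 in siCtrl and 1.13 in siPRMT1 cells and Ankrd37 at 2.29 and 1.05, while Aldoc was not tested in siCtrl cells.

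The effect of the knockdown at day 1 was then asked for in 3 siPRMT1 against 3 siCtrl libraries. Few members differed: of 32 tested, Pfkfb3 was higher and Epas1 lower, against a background of 1.95% of 13689 genes called higher and 1.61% called lower. Pfkfb3 had 2.59, 2.73 and 2.90 FPKM in siPRMT1 cells beside 1.82, 1.66 and 1.76 in siCtrl cells, so the groups did not overlap (log2 0.60, SE 0.0923, adjusted p = 0.0108). That call was lost when siCtrl replicate 2 or any 1 of the 3 siPRMT1 libraries was left out, with adjusted p between 0.0516 and 0.0802. Epas1 had 7.19, 7.29 and 7.54 FPKM in siPRMT1 cells, all below the 9.97, 10.3 and 10.2 of siCtrl cells (log2 -0.52, SE 0.0672, adjusted p = 0.0054). Its value was -0.42 with limma on log2(FPKM + 1), under the fold threshold.

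At any fold, Hk2 (log2 0.40, adjusted p = 0.0197) and Ndrg1 (0.44, adjusted p = 0.034) also passed the adjusted p in the higher direction at day 1, where 3.22% of all genes did, and Pdk1 (-0.29, adjusted p = 0.0329) and P4ha2 (-0.31, adjusted p = 0.0455) in the lower direction, where 4.38% did. Slc2a1, at 0.31, had an adjusted p of 0.06. Levels of the lower chain lay close together, with log2 differences of -0.18 to -0.04 for Tpi1, Gapdh, Pgk1, Pgam1, Pkm and Ldha, none past the adjusted p. Bnip3, Ankrd37, Kdm3a, Egln1 and Egln3 lay between -0.11 and 0.03, and the interval of the Ankrd37 difference ran from -0.32 to 0.30. Without siCtrl replicate 3, the library that stood apart, 2 members were called higher, the second being the Eno1 row, and 1 lower. No share of all genes was taken in that fit.

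At day 3 the members were lower in siPRMT1 than in siCtrl cells along most of the pathway. Of 31 members tested, 11 were called lower and 0 higher, against a background of 3.80% of 14039 genes called lower and 2.84% called higher. The count of 0 was the same with DESeq2 and with limma voom. At an unadjusted p under 0.05 there was 1 higher member (Hif1a) and 27 lower ones with edgeR. No share of all genes was taken at that unadjusted p, here or for the counts at that p below. At any fold, 24 members passed the adjusted p in the lower direction, which 8.94% of all genes did. On CPM after TMM normalization, the 3 siPRMT1 libraries lay entirely below the 3 siCtrl libraries for 26 of the 31 members and for 18.1% of all genes, and above for 0 members, while 34.9% of all genes did not overlap on either side. The median log2 fold change was -0.34 over members and 0.0073 over all genes, and the members took 1.27% to 1.40% of counts in siCtrl and 1.05% to 1.08% in siPRMT1 cells.

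**Figure D2:**
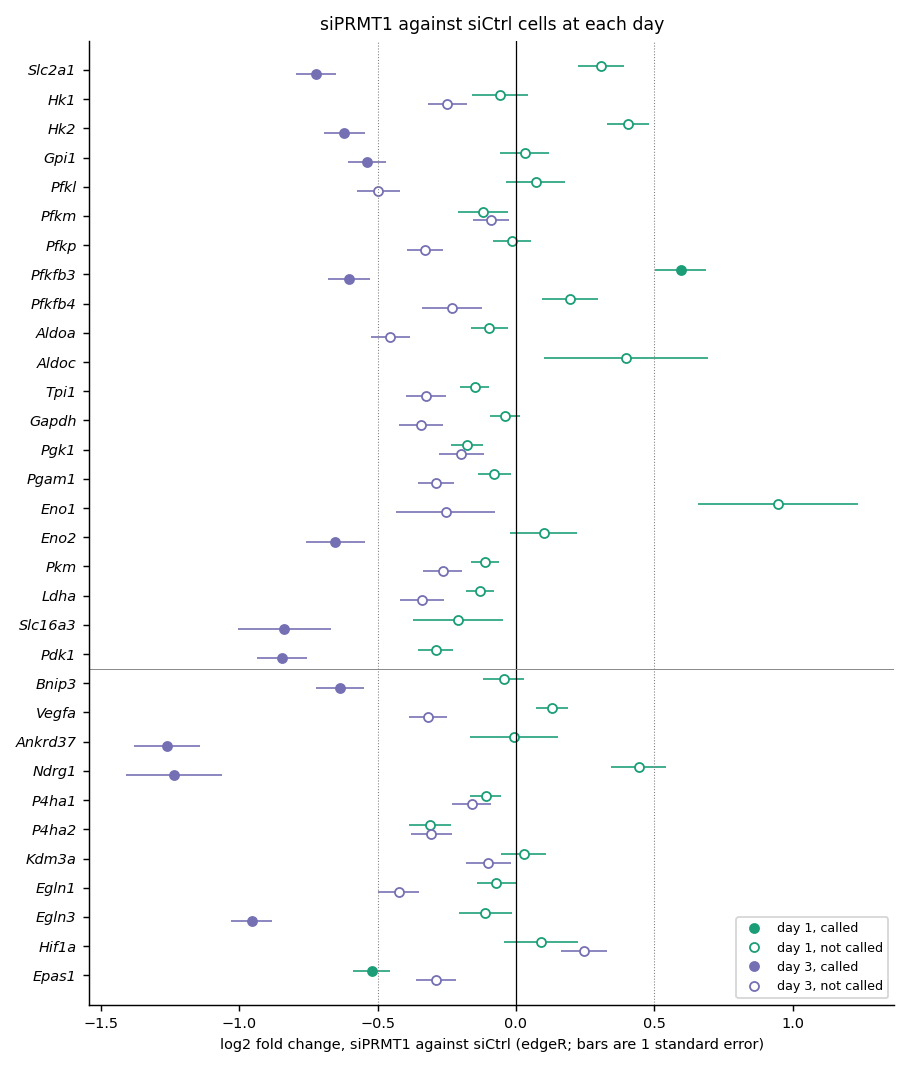
Log2 fold change of siPRMT1 against siCtrl cells for each member at day 1 (green) and day 3 (purple), with bars of 1 standard error, filled points for called members and dotted lines at the fold threshold of 0.5. At day 3 the 11 called members lie between -1.26 (Ankrd37) and -0.54 (Gpi1) and Hif1a alone is above 0, at 0.25. Aldoc was not tested at day 3.

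Uptake and trapping of glucose came first in the chain. Slc2a1 had 47.1, 47.8 and 52.1 FPKM in siPRMT1 cells at day 3 and 77.0, 85.2 and 79.3 in siCtrl cells. Every siPRMT1 library was far below every siCtrl library, at 0.606 of the siCtrl level (log2 -0.72, SE 0.0732, adjusted p = 1.28e-05). Hk2 had 20.8, 19.5 and 20.6 FPKM beside 29.8, 29.7 and 33.7, again with no overlap (log2 -0.62, SE 0.0738, adjusted p = 4.35e-05). Hk1, the more constant hexokinase, was at -0.25 with an adjusted p of 0.0246. Gpi1, which converts glucose 6-phosphate to fructose 6-phosphate, had 115, 124 and 124 FPKM beside 168, 178 and 179 (log2 -0.54, SE 0.0677, adjusted p = 7.05e-05). With the GC content and length offsets its value was -0.46, under the fold threshold.

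At the phosphofructokinase step the isoforms differed in size. Pfkl stood at -0.50, just under the fold threshold and thus not called, with 87.9, 91.1 and 90.5 FPKM against 114, 127 and 138. Pfkp, the platelet type, had -0.33 (adjusted p = 0.00292) and Pfkm, the muscle type, -0.09 (adjusted p = 0.375, interval -0.22 to 0.04). Pfkp shares 285 exon bases with Pitrm1 and Pfkm 300 with Senp1 on the other strand. Pfkfb3 had 5.19, 5.22 and 5.22 FPKM in siPRMT1 cells and 7.95, 7.43 and 8.21 in siCtrl cells (log2 -0.60, SE 0.0760, adjusted p = 7.37e-05), and Pfkfb4 overlapped between groups at -0.23 (adjusted p = 0.155).

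In lower glycolysis the differences were smaller but mostly past the adjusted p. Values were -0.45 for Aldoa, -0.34 for Gapdh, -0.33 for Tpi1, -0.29 for Pgam1 and -0.27 for Pkm, with adjusted p between 4.69e-04 and 0.0197, and Pgk1 at -0.20 did not pass (adjusted p = 0.111). Gapdh, often used as a reference gene, had 771, 762 and 755 FPKM in siPRMT1 cells and 909, 1077 and 901 in siCtrl cells, with no overlap. The call in this stretch was Eno2, a low-level isoform, with 2.12, 2.1 and 2.16 FPKM beside 3.27, 3.57 and 3.18 (log2 -0.65, SE 0.107, adjusted p = 6.77e-04). With limma on log2(FPKM + 1) its value was -0.47, under the fold threshold. Enolase 1 with its rows summed had -0.21 (adjusted p = 0.0607).

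At the branch of pyruvate, Pdk1, the kinase that shuts off pyruvate dehydrogenase, had 14.6, 11.3 and 12.1 FPKM beside 23.4, 21.4 and 23.2. It was at 0.556 of the siCtrl level (log2 -0.85, SE 0.0900, adjusted p = 1.82e-05), the largest difference among the glycolysis members. Ldha had 536, 510 and 513 FPKM against 590, 708 and 667 (log2 -0.34, adjusted p = 0.00836). Slc16a3, at a low level and overlapping Csnk1d, was also called, at -0.84 (adjusted p = 0.00322). With limma on log2(FPKM + 1) without a filter its value was -0.32, under the fold threshold.

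The 3 largest differences of any member were those of Ankrd37, Ndrg1 and Egln3, all hypoxia-response genes. Ankrd37 had 3.68, 3.47 and 3.66 FPKM in siPRMT1 cells and 8.63, 7.20 and 9.80 in siCtrl cells at day 3. The lowest siCtrl library was well above the highest siPRMT1 library, and siPRMT1 cells held 0.417 of the siCtrl level (log2 -1.26, SE 0.119, adjusted p = 7.29e-06). Ndrg1 had 1.38, 1.10 and 1.09 FPKM beside a wider spread of 3.55, 2.66 and 2.19, also without overlap (log2 -1.24, SE 0.174, adjusted p = 1.98e-04). Egln3 had 27.5, 25.2 and 27.3 FPKM beside 48.9, 50.4 and 55.1 (log2 -0.96, SE 0.0751, adjusted p = 1.47e-06). Bnip3 had 96.8, 77.0 and 79.3 FPKM beside 135, 126 and 132 (log2 -0.64, SE 0.0864, adjusted p = 1.48e-04).

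Other members of the hypoxia group stayed under the fold threshold. Egln1 was at -0.42, Vegfa at -0.32, P4ha2 at -0.31 and Epas1 at -0.29, each with an adjusted p between 0.00124 and 0.0125, and P4ha1 (-0.16) and Kdm3a (-0.10) did not pass. Hif1a was the exception in direction, with 49.1, 44.5 and 41.9 FPKM in siPRMT1 and 42.5, 36.2 and 35.2 in siCtrl cells, groups that overlapped (log2 0.25, interval 0.08 to 0.41, adjusted p = 0.0561). Each of the 11 called members was still called in all 6 fits that left out 1 library, and those fits called 11 to 13 members lower. No share of all genes was taken in those fits.

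**Figure D3:**
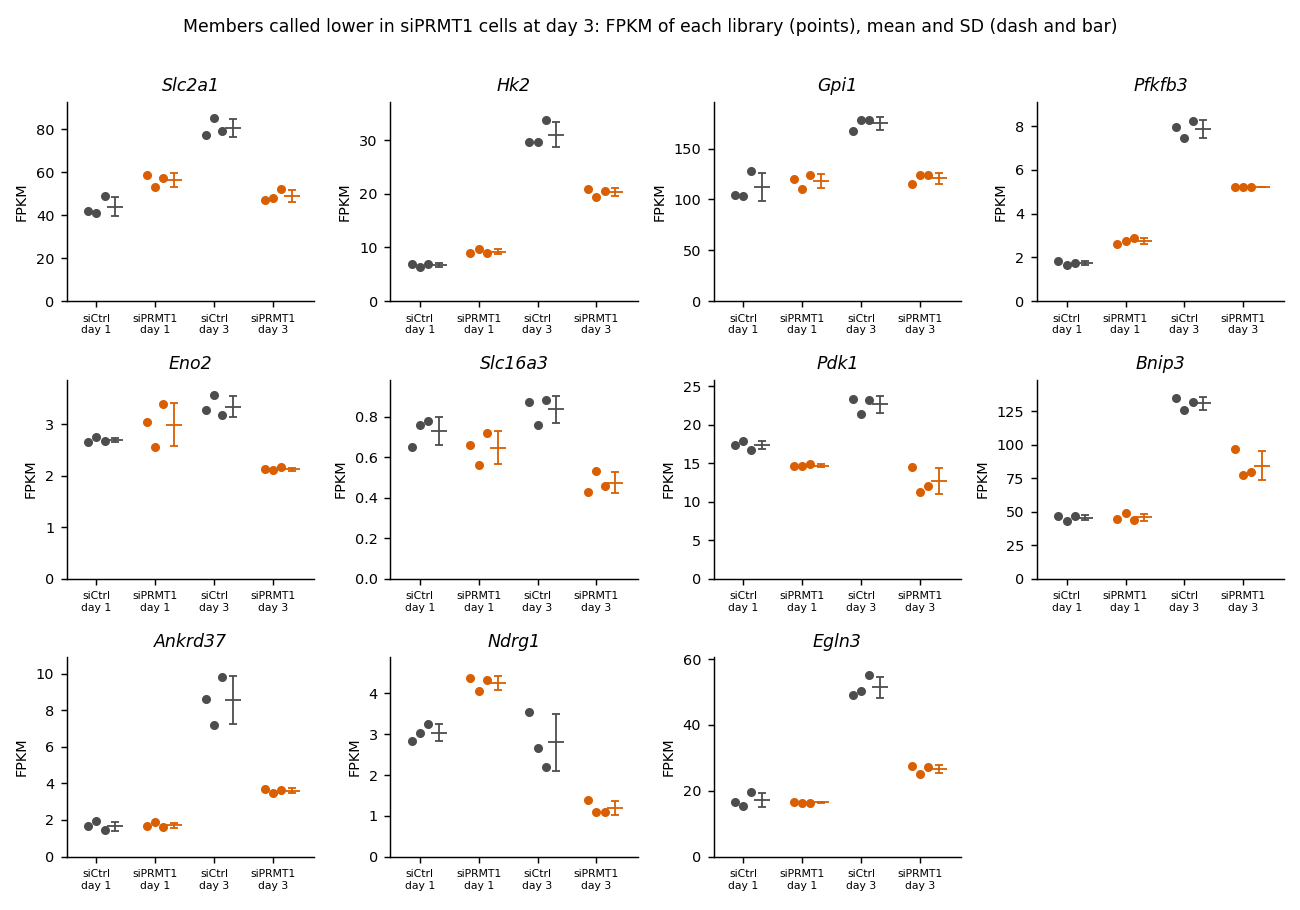
FPKM of the 11 members called lower at day 3, 1 panel a gene, with a point for each library of the 4 groups (siCtrl grey, siPRMT1 orange) and the mean and SD beside them. In each panel the 3 siPRMT1 libraries at day 3 lie below the 3 siCtrl libraries of that day, as for Egln3 at 25.2 to 27.5 against 48.9 to 55.1 FPKM.

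Whether the knockdown effect itself differed between days was tested as an interaction over all 12 libraries. Of 32 members tested, 12 had a lower effect at day 3 than at day 1 and 0 a higher one, against 3.47% and 4.77% of 14612 genes. Without the fold threshold 14 members were lower, beside 4.63% of all genes, and 0 higher, beside 7.69%. The count of 0 was the same with DESeq2 and limma voom, and 1 member (Epas1) was higher at an unadjusted p under 0.05 with edgeR. The 2 knockdown comparisons share no library, but the interaction and the courses use the same libraries again and are not further evidence. Ndrg1 had the largest difference, -1.66 (SE 0.219, adjusted p = 2.38e-04), from 0.44 at day 1 to -1.24 at day 3. Pfkfb3 changed sign, from 0.60 to -0.60 (difference -1.18, SE 0.110, adjusted p = 1.58e-05).

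Further members of the chain had the following differences of effect. Slc2a1 went from 0.31 to -0.72 (difference -1.01, adjusted p = 7.8e-05) and Hk2 from 0.40 to -0.62 (difference -1.004, adjusted p = 3.99e-05). The differences were -1.23 for Ankrd37, -0.82 for Egln3, -0.73 for Eno2, -0.57 for Bnip3, -0.55 for Gpi1, -0.55 for Pfkl and -0.54 for Pdk1. Pfkl lost its call without any 1 of 7 libraries and with the GC content and length offsets (-0.41), Gpi1 with those offsets (-0.48) and without siCtrl replicate 1 at day 1 (-0.49), Pdk1 without siPRMT1 replicate 2 at day 3 (-0.46) and with no filter on low counts (-0.49), and the Eno1 row (-1.18) with its copies summed (-0.21) and without any 1 of 8 libraries. Without siCtrl replicate 3 at day 1, 14 members were called, and 9 without siCtrl replicate 1 at day 1 or siPRMT1 replicate 2 at day 3. No share of all genes was taken in these fits, so the moves in count are not set against all genes. P4ha1 (-0.03), P4ha2 (0.03) and Pfkm (0.05) had close values on both days, and the interval of the Pfkm difference ran from -0.17 to 0.28.

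Where a step has several isoforms among the members, their share of the summed FPKM of those members moved with differentiation. Isoforms outside the members are not in these shares. In siCtrl cells Egln2 had a mean of 39.3 FPKM at day 1 and 44.3 at day 3, and Pfkfb1 had 4.13 and 6.45. Hk2 made up 19.1%, 18.0% and 15.6% of Hk1 and Hk2 in siCtrl cells at day 1 and 50.1%, 49.0% and 52.4% at day 3, and 46.6%, 42.5% and 43.2% in siPRMT1 cells at day 3. All siPRMT1 values at day 3 lay below the siCtrl values of that day, and the Hk2_1 row (21.4 FPKM in siCtrl cells at day 3) is not in these shares. Pfkfb3 went from 41.2% ± 2.39 (SD, n = 3) of Pfkfb3 and Pfkfb4 to 67.7% ± 2.79 in siCtrl cells and from 48.1% ± 2.87 to 62.0% ± 2.35 in siPRMT1 cells. Egln3 went from 48.1% ± 1.61 to 63.4% ± 2.35 of Egln1 and Egln3 in siCtrl cells, and from 47.5% ± 0.830 to 54.6% ± 0.597 in siPRMT1 cells. Hif1a fell from 88.1% ± 2.12 to 71.5% ± 2.29 of Hif1a and Epas1 in siCtrl cells and from 92.0% ± 0.768 to 78.4% ± 2.45 in siPRMT1 cells. These shares are levels without a test.

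**Figure D4:**
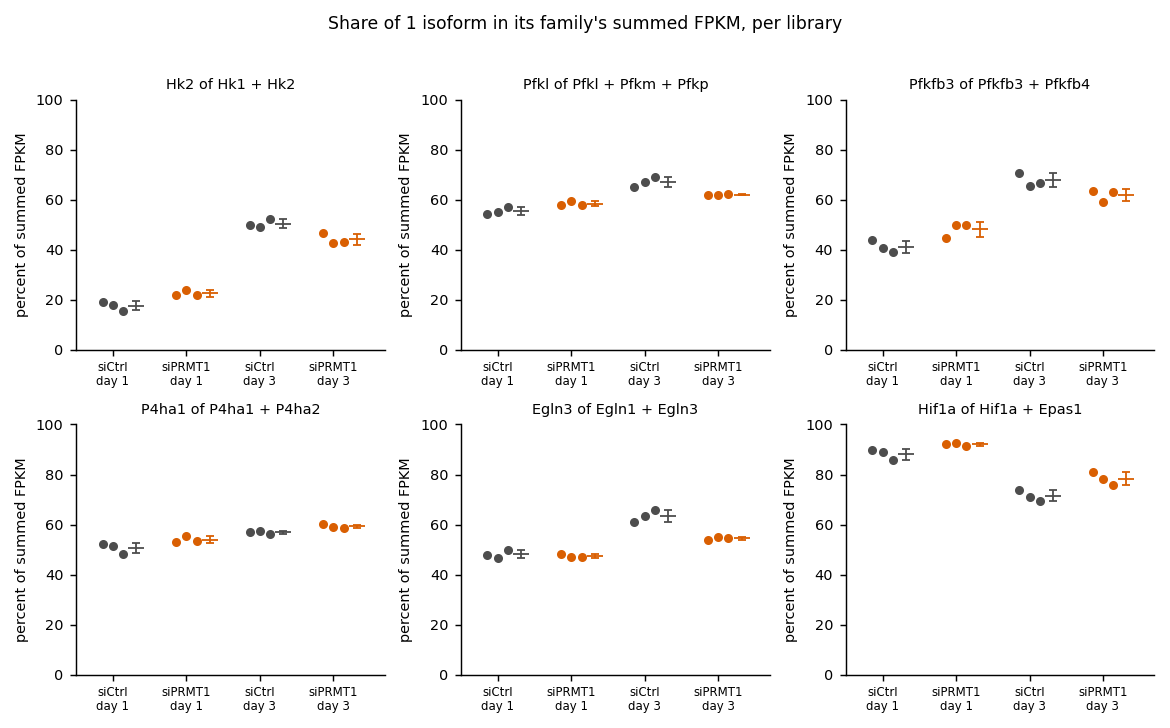
Percent of the summed FPKM of a family's member isoforms that 1 isoform takes, 1 panel a family. Each panel has a point for each library of the 4 groups and the mean and SD beside them. Hk2 moves from 15.6% to 19.1% in siCtrl cells at day 1 to between 49.0% and 52.4% at day 3, and Hif1a falls from 88.1% to 71.5% on average.

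Further genes of these pathways were read from lists written by hand. Of 46 other targets of hypoxia-inducible factor, 41 were tested at day 3, where 13 were lower and 1 higher in siPRMT1 cells (3.80% and 2.84% of all genes), with a median of -0.33. The lower ones with the smallest p were Bhlhe40, a transcriptional repressor (-0.84, adjusted p = 2.29e-06), and Ppp1r3b, which targets a phosphatase to glycogen (-1.86, adjusted p = 2.31e-06). Lox, which cross-links collagen, was the higher one (0.88, adjusted p = 2.31e-06). At day 1, 2 of 38 were higher and 2 lower (1.95% and 1.61% of all genes), among them Ero1l, an oxidase of the endoplasmic reticulum, at 0.80, Ppp1r3c at -0.83 and Ccng2 at -0.68. In siCtrl cells 20 of 40 rose from day 1 to day 3 and 4 fell (22.7% and 20.4% of all genes), where Ak4, a mitochondrial adenylate kinase, rose by 2.03, Hmox1, heme oxygenase, rose by 2.24 and Lox fell by 2.60. In siPRMT1 cells 14 of 40 rose and 5 fell (19.0% and 17.4% of all genes), with Hmox1 at 1.74, Ppp1r3c at 1.15 and Lox at -1.37.

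Of 33 other glycolysis genes, 22 were tested at day 3 and 4 were lower, beside 3.80% of all genes, with Pgm2 (phosphoglucomutase 2, -0.83), Pdk2 (-0.62) and Pfkfb1 (-0.50) first, and the median was -0.08. None was higher with edgeR (2.84% of all genes), DESeq2 or limma voom, and 2 were higher at an unadjusted p under 0.05. At day 1, 0 of 20 were called with edgeR, beside 1.95% of all genes called higher and 1.61% lower. At an unadjusted p under 0.05, 3 of the 20 were higher and 5 lower with edgeR. DESeq2 called 1 higher and limma voom 2 higher. From day 1 to day 3, Slc2a4, the insulin-regulated transporter GLUT4, rose by 6.78 in siCtrl and 6.63 in siPRMT1 cells, Ldhb by 2.21 and 2.04, and Pdk4 fell by 1.41 and 1.16. In siCtrl cells Slc2a4 had 0.02, 0 and 0.02 FPKM at day 1 and 1.43, 1.40 and 1.62 at day 3. The size of its rise thus rests on day 1 levels near 0. Of the 22 tested, 8 rose and 3 fell in siCtrl cells, beside 22.7% and 20.4% of all genes, and 7 rose and 3 fell in siPRMT1 cells, beside 19.0% and 17.4%. Of 8 pentose phosphate genes, Tkt (transketolase, -0.64, adjusted p = 3.08e-05) was the 1 lower at day 3 (3.80% of all genes). At day 1, 0 of the 8 were called by edgeR, DESeq2 or limma voom. With edgeR 1.95% of all genes were called higher and 1.61% lower on that day. At an unadjusted p under 0.05, 1 of the 8 was lower at day 1 with edgeR. Taldo1, Rpia and G6pdx rose by 1.56, 1.16 and 0.79 in siCtrl cells, where 6 of 8 rose (22.7% of all genes), and by 1.74, 1.15 and 0.63 in siPRMT1 cells, where 4 rose (19.0% of all genes).

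Of 17 partners and regulators of the factors, 16 were tested and 0 were called at day 3 by edgeR, DESeq2 or limma voom. Of all genes, 3.80% were called lower and 2.84% higher with edgeR, so 0 of 16 is near the background. At an unadjusted p under 0.05, 4 of the 16 were higher and 2 lower (edgeR), and their median was 0.08. At day 1, 0 were called by edgeR and DESeq2 and 1 was higher with limma voom. The edgeR background was 1.95% of all genes called higher and 1.61% lower. At an unadjusted p under 0.05, 3 of these regulators were higher and 3 lower (edgeR). From day 1 to day 3, Hif3a, a further alpha subunit, rose by 1.83 in siCtrl and 2.09 in siPRMT1 cells, Arnt, the shared partner, fell by 0.68 and 0.58, Siah2, a ubiquitin ligase, rose by 0.89 in siCtrl cells and had 0.10 in siPRMT1 cells, and Arnt2 rose by 1.81 and 1.25. Levels of Hif3a and Arnt2 were low, with siCtrl means of 0.177 and 0.0833 FPKM at day 1 and 0.667 and 0.290 at day 3.

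Genes most alike in pattern were named for the members with the largest called changes, by Pearson's r of log2 CPM over the 12 libraries, a description across libraries of 4 groups. For Ankrd37 these were Fam132a (r = 0.987), Bhlhe40 (0.984) and Gbe1 (0.983), where Gbe1 is the glycogen branching enzyme. For Hk2 they were Pvr (0.995), its own second row Hk2_1 (0.994) and Gramd1b (0.994). For Ndrg1 they were Lmo4 (0.952), Plekhm3 (0.933) and Gm31204 (0.933).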

How the data were processed

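mRNA libraries of 12 samples (MGIEasy kit) were analysed. Reads were trimmed by the authors (cutadapt 1.11) and aligned (HISAT2 2.1.0). The submitters' processing notes also list RSEM 1.2.6 and mm10, with no role given. The counting tool and strand setting are not given in the sources used here. The authors deposited whole-number counts per gene, without normalization, and FPKM made from them, the gene length and the library total (recomputed to within 0.005). The median library held 23612956 counts.

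The 32 members and all lists were chosen with earlier results of these data known. Counts were tested with edgeR 4.0.16 (quasi-likelihood, TMM, filterByExpr), only the 2 groups compared entering each fit and all 12 libraries the interaction. P-values were adjusted by the Benjamini-Hochberg method over all genes tested, and called means adjusted p under 0.05 and absolute log2 fold change over 0.5. Standard errors were the size of the log2 fold change over the square root of F, and intervals are 1.96 standard errors wide on each side. Such intervals are narrower than the F test: Pkm at day 1 had -0.21 to -0.01 with an unadjusted p of 0.0567 (edgeR). Alternatives were DESeq2 1.42.0, limma 3.58.1 (voom with library weights, and log2(FPKM + 1) where the mean reached 1 FPKM, or a pseudocount of 0.1, or no filter), RLE, no filter, at least 10 counts in every library, a replicate block, 1 model of all libraries, no fold threshold and each library left out. Sums of copies and GC content and length offsets were added after seeing the data. GC content and near copies came from GENCODE M21 (blastn 2.17.0, at least 95% identity over 300 bases). The tests were checked on simulated data for the day 3 knockdown and the interaction only, with 200 genes changed by 1 on the log2 scale. There edgeR recovered 200 and 192 of them, with 5 and 7 false calls. Smaller changes, and changes in genes of low counts, were not simulated.

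Named are all 32 members, Prmt1, from each further list, per comparison, the 3 called genes lowest in p, and the 3 genes most alike to the 2 members with the largest called change in siCtrl differentiation and in the day 3 knockdown. Chi-square between replicates of a group ran from 4.14 to 50.6 per gene, so each pair differed by more than sampling noise and each library was counted once.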

Additional observations from a re-analysis of the deposited data

Results flagged for a closer look

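The knockdown effect differed between day 3 and day 1 for the following genes by the interaction over all 12 libraries (edgeR's quasi-likelihood test, adjusted p over 14612 genes), given as the effect at day 3 minus that at day 1 on the log2 scale. Among glycolysis members the differences were -1.01 for Slc2a1, -1.004 for Hk2, -0.55 for Gpi1, -0.55 for Pfkl, -1.18 for Pfkfb3, -1.18 for the Eno1 row, -0.73 for Eno2 and -0.54 for Pdk1, with adjusted p from 1.58e-05 (Pfkfb3) to 0.0489 (Eno1). Among hypoxia-response members they were -0.57 for Bnip3, -1.23 for Ankrd37, -1.66 for Ndrg1 and -0.82 for Egln3, with adjusted p from 2.38e-04 to 0.00772.

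Of the further lists, the same test gave -0.84 for Gapdhs, the sperm form of the dehydrogenase, -0.54 for Tigar, a fructose 2,6-bisphosphatase, and -0.79 for Pgam2 among glycolysis genes. Among other targets of hypoxia-inducible factor it gave 1.24 for Lox, 0.81 for Cxcl12, a chemokine, and -1.51 for Ak4. These are the 3 lowest in p and do not show the direction of that list. Of its 41 genes tested, 14 had a lower effect at day 3 and 3 a higher one, with a median of -0.40. The background was 3.47% of all genes lower and 4.77% higher. Lox had 131.5, 130.9 and 119.8 FPKM in siPRMT1 and 159.5, 161.9 and 146.5 in siCtrl cells at day 1, and 48.5, 52.8 and 48.2 against 29.8, 26.0 and 25.4 at day 3, so its groups changed order between the days. Among regulators of the factors it gave -0.78 for Siah2 and 0.69 for Tceb1 (elongin C), and among pentose phosphate genes -0.51 for Tkt and -0.52 for Pgd. The part that cell state or library quality plays in these differences was not tested.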

How the results depend on the processing

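At day 3, 11 members were lower with edgeR, 9 to 12 in the alternatives with all libraries and the fold threshold, and 24 with no fold threshold. At day 1, 1 member was higher and 1 lower. The higher count was 2 with DESeq2, no filter, the replicate block, limma voom, all 12 libraries in 1 model and the GC content and length offsets, 3 with no fold threshold, and 0 with limma on log2(FPKM + 1) with or without a filter. The lower count was 3 with no fold threshold and 0 with limma on FPKM at either pseudocount or without a filter. In siCtrl cells 11 members rose and 2 fell from day 1 to day 3. These were 17 and 6 with no fold threshold, and 6 and 4 with the GC content and length offsets. In siPRMT1 cells 7 fell, 6 with DESeq2, 8 with limma voom and 16 with no fold threshold. The count was 4 with limma on FPKM at either pseudocount or without a filter. In the interaction 12 were lower and 9 to 14 with 1 library left out. Leaving out single libraries, the day 1 counts were 0 to 2 higher and 1 to 1 lower, the day 3 count 11 to 13 lower, the siCtrl course 10 to 11 higher and 2 to 3 lower, and the siPRMT1 course 7 to 7 higher and 5 to 8 lower. The cause of these changes was not tested. For the alternatives and left-out libraries, apart from no fold threshold, no share of all genes was taken. No member that was called changed direction in any alternative. Over all members, comparisons and alternatives other than left-out libraries, 1905 values kept their side of the threshold, 64 gained a call and 34 lost it. The gains include those made by removing the fold threshold itself. These were 4 at day 1, 13 at day 3, 10 in the siCtrl course, 11 in the siPRMT1 course and 2 in the interaction. Taken from raw counts without gene length, 12 group means of isoform shares moved by at least their SD and 12 did not.

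Same-numbered libraries had correlations of their deviations from the group means between -0.169 and 0.216 over the 4 comparisons of 2 groups. Differently numbered libraries had correlations between -0.257 and 0.214. With 3 libraries a group these values cannot decide whether replicate numbers pair the libraries. With the replicate block, 11 members were lower at day 3, 12 in the interaction and 6 in the siPRMT1 course, where Eno2 stood at -0.4964. Depth limits Aldoc and the Eno1 row, which had 130 and 1106 counts in all.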
